A study of Homo sapiens with 6 samples.

Results

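The genes of the proteasome were examined in the human colorectal adenocarcinoma line SW480, treated for 24 h with either DMSO or MPM-1. They were taken as the rows whose symbol starts with PSMA, PSMB, PSMC, PSMD, PSME, PSMF or PSMG, which gave 47 of the 12982 genes measured. Of these, 46 encode subunits, assembly factors, activators or an inhibitor of the proteasome. The remaining row, PSMC3IP, matched by its letters alone and encodes a factor of meiotic recombination. PSMA8 and PSMB11, the subunits of the testis and the thymus, were not among the rows.

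Both groups held wild-type SW480 cells and differed in the agent added. MPM-1, called WT4 in the labels, is a fluorescent small molecule directed to mitochondria, and DMSO is its solvent. Its dose in this experiment is not given in the sources used here. There were 3 libraries of mRNA per treatment, all from 1 cell line at 1 time, and nothing says whether they came from separate cultures, so p-values measure the spread between these libraries, which may be technical. Counts per library summed to between 31733667 and 40269820, and proteasome genes took 0.610 to 0.687% of them. A count of 0 would allow up to 3 counts, 0.0695 to 0.0985 CPM, a limit that covers counting error only, and all members lay far above it. All 8 colon epithelial markers listed were in the table, 4 of them higher and 3 lower after MPM-1, with mean FPKM of 12.4 to 2320. CDH1, KRT8, KRT18 and KRT19 were higher (log2 fold changes of 0.42 to 0.89 in the edgeR test described below), EPCAM had -0.00084 (adjusted p = 0.995), and VIL1 (-0.88), CDX1 (-0.98) and CDX2 (-2.201), of which CDX1 and CDX2 are transcription factors of the intestinal epithelium, were lower. Of 11 markers of other cell types 2 were in the table, and mean FPKM was 5.08 and 1.84 for CD14 and 0.468 and 0.0942 for COL1A1, DMSO first. The other 9, among them PTPRC, CD3E and ALB, have no row in the table. In bulk RNA, fewer cells that express a gene and less RNA per cell cannot be told apart.

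The proteasome is the protease that degrades proteins tagged with ubiquitin. Its 20S core is a barrel with outer rings of alpha subunits, which gate the entrance, and inner rings of beta subunits, of which PSMB5, PSMB6 and PSMB7 carry the active sites. The 19S regulatory particle caps the barrel. Its base holds a ring of ATPases (PSMC genes) that unfold the substrate, and its lid removes the ubiquitin. Under interferon the active subunits can be replaced by PSMB8, PSMB9 and PSMB10, which form the immunoproteasome, and other caps, PA28 and PA200, can take the place of the 19S particle. When proteasomes fail to keep up, the transcription factor NFE2L1 is released from the endoplasmic reticulum and raises the transcription of proteasome genes.

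After MPM-1, transcripts of the 19S particle were higher relative to those of the 20S core, and the immunoproteasome subunit PSMB9 was lower. Of the 46 members, 19 were higher (41.3%; 27.7% of all genes tested were) and 10 were lower (21.7%; 28.8% of all genes tested were). Together 29 members were called, in a comparison that called 56.5% of all genes tested in either direction. The call was an adjusted p-value under 0.05 in the quasi-likelihood test of edgeR, on counts scaled by TMM and adjusted over all genes by the method of Benjamini and Hochberg, and every adjusted p below comes from it unless another tool is named. The changes were small. The log2 fold change of MPM-1 against DMSO lay under 0.5 in size in 40 of the 46 members, against 7422 of the 12982 genes tested. A rise of at least 1 on the log2 scale at an adjusted p under 0.01, seen in 5.58% of all genes tested, was not reached, the highest member standing at 0.59. A fall of that size, seen in 8.75% of all genes tested, was reached by 1 member, PSMB9. The libraries of the treatments did not overlap in 21 members with MPM-1 above DMSO and in 11 with MPM-1 below, where the shares of all genes tested were 31% and 33.3%.

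The number of members called in each direction depended on how the libraries were scaled to each other. With TMM the median log2 fold change was -0.026 over all genes and 0.083 over the members, with 19 members higher and 10 lower. With library size alone these medians were -0.18 and -0.066, with 7 members higher and 16 lower, and with limma on log2(FPKM + 1), where FPKM are fragment numbers already divided by transcript length and depth in the deposited table, -0.13 and -0.082, with 6 higher and 18 lower. Of 12982 genes tested, TMM called 7336, 49.0% of them higher, and library size alone called 7460, 34.7% of them higher. Limma on log2(FPKM + 1) called 6429 of 11497, 36.7% of them higher. With TMM a larger share of the members than of all genes tested was called higher. With library size alone and with limma that share was smaller in the members. Leaving out MPM-1 replicate 1, 2 or 3 gave a member median of 0.146, 0.051 or 0.125 with TMM. A total of 14 members kept their call and direction under all 15 alternatives. These were PSMD14, PSMD7, PSMC1, PSMD11, PSMD10 and PSME4, which were higher, and PSMB9, PSMG3, PSMG4, PSMD3, PSME1, PSMB3, PSMA4 and PSMB8, which were lower. No called member turned its direction under any of them.

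**Figure D1:**
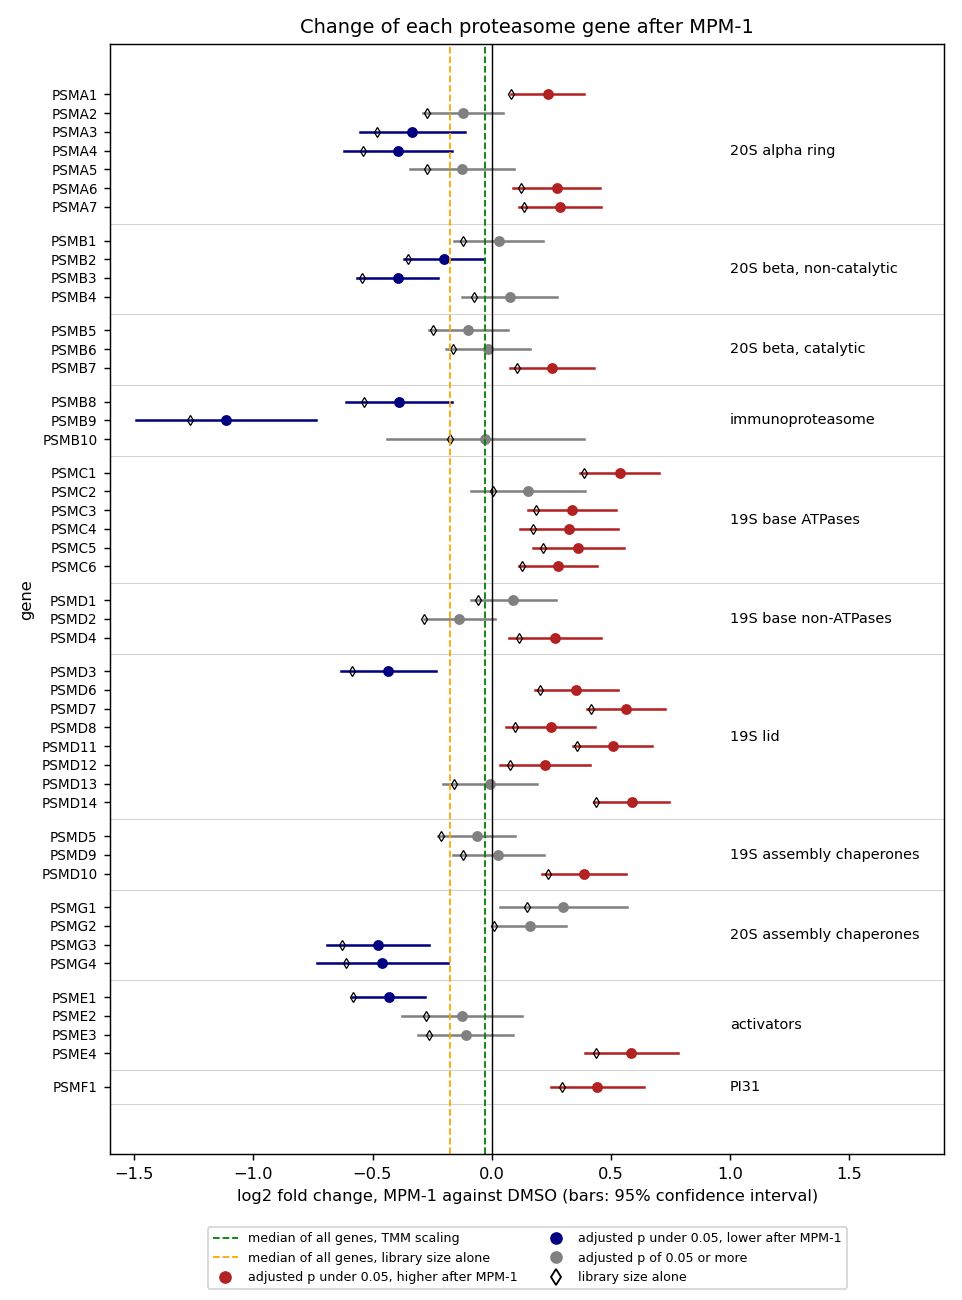
Log2 fold change of MPM-1 against DMSO (x axis) for each of the 46 proteasome genes (y axis, grouped by role), as circles with 95% confidence intervals under TMM scaling and as diamonds under library size alone; dashed lines mark the median of all genes under each scaling. Of the 17 genes of the 19S subunits 12 were called higher with TMM and 4 with library size alone, and PSMB9 lies farthest to the left, at -1.12.

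Promoter letters were read beside these changes. RefSeq promoters (GRCh38.p14, 250 bases before to 50 after the transcript start) matched 40 of the 46 members. Both strands were searched for TGACNNNGC, the core of the antioxidant response element read by NFE2L1 and NFE2L2 with small MAF proteins, for CCAAT, the box bound by NF-Y, and for the core of the interferon-stimulated response element, which reads GAAA, any 2 bases and GAAA again. TGACNNNGC was in 13 of the 40 promoters (32.5%, against 13.3% of all 35116 promoters) and CCAAT in 17 (42.5%, against 34.6%). The interferon core was in 7 (17.5%, against 3.57%). For each member 1 promoter was read, the first by position. The 35116 promoters were not limited to the genes measured here or to 1 per gene. The shares thus differ in basis, and the difference between them was not tested. By call, TGACNNNGC was in 3 of 16 members that were higher, 4 of 9 that were lower and 6 of 15 that did not pass. The interferon core was in 0 of 16, 4 of 9 and 3 of 15, and CCAAT in 7 of 16, 5 of 9 and 5 of 15. A match is a description of the letters and not a bound site, and in the promoters printed no match to one motif overlapped a match to another. Promoters are printed below for 5 members whose changes the results turn on, 5′ to 3′ in the direction of the gene, in lower case with every match to the 3 motifs, on either strand, in capitals. Positions count from the transcript start, with -1 the base before it.

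Among the members, the lid of the 19S particle held the largest rise of a subunit. PSMD14, the deubiquitinase that cuts ubiquitin chains off the substrate (chr2:161308038-161411717, plus strand, GRCh38), stood at 126, 131 and 131 CPM (counts scaled by TMM to a common library size) in the DMSO libraries and at 189, 203 and 191 CPM in the MPM-1 libraries. All MPM-1 libraries lay above all DMSO libraries. Its mean rose from 129 ± 2.52 to 194 ± 8.02 CPM (SD, n = 3), 1.502-fold, with a log2 fold change of 0.59 (SE 0.070, 95% confidence interval 0.43 to 0.74, adjusted p = 0.000105). The promoter, chr2:161308175-161308474 on the plus strand, holds CCAAT on both strands, the runs starting at -48 and -45 and sharing letters, and is shown because this gene had the largest rise of a subunit among the members.
PSMD14: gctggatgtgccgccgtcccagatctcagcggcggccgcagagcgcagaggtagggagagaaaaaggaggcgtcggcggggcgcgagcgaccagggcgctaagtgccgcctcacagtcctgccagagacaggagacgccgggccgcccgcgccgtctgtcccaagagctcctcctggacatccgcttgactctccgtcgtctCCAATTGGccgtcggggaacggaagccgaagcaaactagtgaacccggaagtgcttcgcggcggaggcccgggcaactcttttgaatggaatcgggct

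PSMD7, the partner that PSMD14 binds in the lid, stood at 156, 153 and 156 CPM with DMSO and 222, 244 and 221 CPM with MPM-1, a log2 fold change of 0.56 (SE 0.072, adjusted p = 0.000158). PSMD11, a scaffold subunit that helps to hold lid, base and core together, had 94.7, 93.6 and 93.1 CPM and 143, 127 and 131 CPM, a log2 fold change of 0.51 (SE 0.074, adjusted p = 0.00034). In both, as in PSMD14, every MPM-1 library lay above every DMSO library. PSMD3, another scaffold subunit of the lid, went the other way. Its values were 113, 121 and 109 CPM with DMSO and 93.3, 76.8 and 83.3 CPM with MPM-1, again without overlap, and it fell by 0.43 on the log2 scale (SE 0.089, adjusted p = 0.00245). Among the other lid genes, all scaffold subunits, PSMD6 (log2 fold change 0.35, adjusted p = 0.00362), PSMD8 (0.25, adjusted p = 0.0294) and PSMD12 (0.23, adjusted p = 0.0445) were higher, while PSMD13 had -0.0083 (adjusted p = 0.944). In all, 6 of 8 lid genes were higher (75%, against 27.7% of all genes tested) and 1 was lower (12.5%, against 28.8%). PSMD6, PSMD8 and PSMD12 lost their calls with library size alone and with FPKM. PSMD8 missed the threshold also without DMSO replicate 2 (adjusted p = 0.111), DMSO replicate 3 (0.093) or MPM-1 replicate 3 (0.0546). PSMD12 missed it without DMSO replicate 1, 2 or 3 (adjusted p = 0.072, 0.0865 and 0.124) and without MPM-1 replicate 2 or 3 (0.0885 and 0.0786).

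In the base, the 6 ATPases all had a positive log2 fold change with TMM, with a median of 0.33. Of these, 5 were higher (83.3%, against 27.7% of all genes tested). PSMC1, an ATPase whose tail helps to open the gate of the core, stood at 117, 115 and 120.3 CPM with DMSO and 172, 179 and 159.9 CPM with MPM-1. The groups did not overlap, and the log2 fold change was 0.54 (SE 0.074, adjusted p = 0.00024). The gene (chr14:90256495-90275429, plus strand) shares 7574 bases with NRDE2 on the opposite strand and has 13 pseudogenes named after it, none of them in the table. The strand setting of the counting is not given, so the level of PSMC1 is uncertain to that extent. Some other members have named pseudogenes too, among them PSMA6 (4), PSMD10 (3) and PSMA2 (3), none of them in the table. NRDE2 itself had a log2 fold change of -0.12 (adjusted p = 0.397). PSMC5 (log2 fold change 0.36, adjusted p = 0.00505), PSMC3 (0.34, adjusted p = 0.00629), PSMC4 (0.32, adjusted p = 0.0133) and PSMC6 (0.28, adjusted p = 0.00932) were higher with TMM and lost their calls with library size alone and with FPKM. PSMC4 also lost its call without DMSO replicate 2 (adjusted p = 0.0597) or 3 (0.054). PSMC2 had the smallest change of the 6, with 115, 117 and 117 CPM in DMSO and 112, 152 and 123 CPM in MPM-1. MPM-1 replicate 2 was high and replicate 1 lay below all DMSO libraries, so that the groups overlapped (log2 fold change 0.15, SE 0.11, 95% confidence interval -0.089 to 0.39, adjusted p = 0.253).

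The 3 other subunits of the base differed among themselves. PSMD4, a receptor for ubiquitin, had 146, 137 and 154 CPM with DMSO and 166, 193 and 168 CPM with MPM-1 (log2 fold change 0.27, SE 0.086, adjusted p = 0.0242). This call was lost with library size alone, with FPKM, without DMSO replicate 2 (adjusted p = 0.0959) and without MPM-1 replicate 2 (0.0555). PSMD2, a docking subunit for ubiquitin-like domains, had 226, 226 and 220.1 CPM and 199, 206 and 208 CPM. The MPM-1 libraries lay below the DMSO libraries, yet the change did not pass with TMM (log2 fold change -0.14, SE 0.067, adjusted p = 0.109), while it passed with library size alone (-0.29, adjusted p = 0.00462). PSMD1, its structural relative, had a log2 fold change of 0.091 (adjusted p = 0.35). ADRM1, the other ubiquitin receptor of the base, carries a symbol outside the rule; it rose from 168 ± 18.6 to 253 ± 7.704 CPM (log2 fold change 0.59, SE 0.090, adjusted p = 0.000429) and kept this call under all 15 alternatives.

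**Figure D2:**
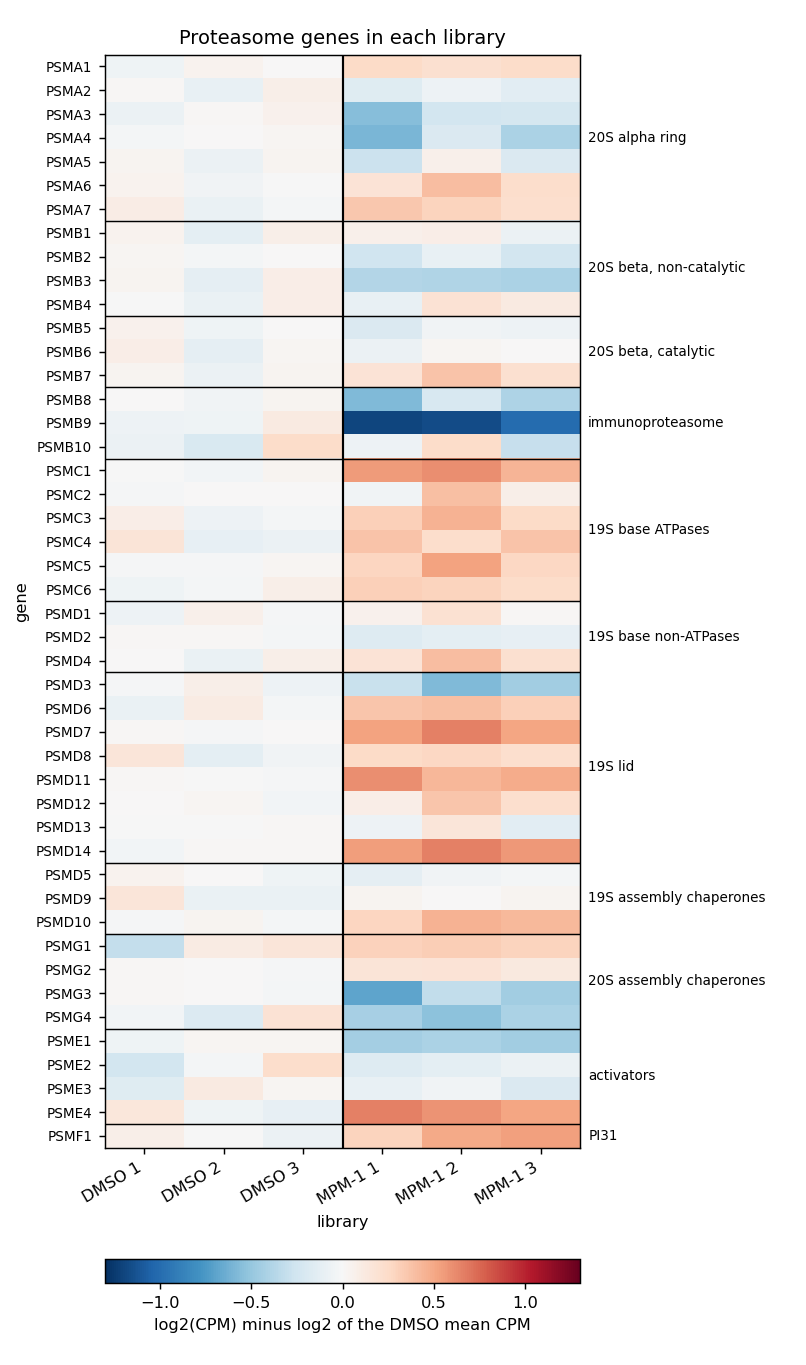
Log2 CPM of each proteasome gene (y axis, grouped by role) in each library (x axis), minus the log2 of its mean CPM in the DMSO libraries, on a color scale from blue (lower) to red (higher), all with TMM scaling. Rows of the 19S base and lid are mostly red in the 3 MPM-1 libraries, with PSMD3 and PSMD2 in blue, and rows of the 20S core are mixed; with library size alone 4 of the 17 genes of the 19S subunits were called higher and 2 lower.

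For the 17 subunits of the 19S particle together, 12 were higher (70.6%, against 27.7% of all genes tested) and 1 was lower (5.88%, against 28.8%), with a median log2 fold change of 0.28 with TMM. With library size alone 4 were higher and 2 lower, with a median of 0.13. In that setting 7460 of the 12982 genes tested were called, 34.7% of them higher. For the 14 subunits of the 20S core, 4 were higher and 4 lower (28.6% each) with TMM, with a median of -0.057, and 7 were lower and the other 7 did not pass with library size alone, with a median of -0.21. Relative to the median of all genes in the same setting, the 19S median was 0.31 higher with TMM and 0.25 to 0.34 higher over all settings tried, and the 20S median was 0.031 lower with TMM and lay between -0.072 and 0.0068. In the TMM setting 15 of the 17 19S genes lay above the all-gene median, and 7 of the 14 20S genes did. The distance between the particles' medians was 0.34 with TMM and 0.32 to 0.36 over all settings. Without DMSO replicate 2, 2 genes of the core were higher and 2 lower, and without DMSO replicate 3 or MPM-1 replicate 1, 2 were lower.

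A ratio within each library does not depend on the scaling between libraries. The summed FPKM of the 19S genes, as a ratio to that of the 20S genes, was 0.432, 0.451 and 0.421 in the DMSO libraries and 0.527, 0.522 and 0.513 in the MPM-1 libraries. The MPM-1 libraries all lay above the DMSO libraries, and the mean went from 0.435 ± 0.0152 to 0.521 ± 0.00705 (SD, n = 3). On CPM the ratio went from 0.739 ± 0.0230 to 0.888 ± 0.0181. No test was made of this ratio, since its members were chosen with results known. As a share of all FPKM in the library, the 19S genes took 0.200, 0.205 and 0.200% with DMSO and 0.222, 0.248 and 0.225% with MPM-1, and the 20S genes took 0.462, 0.454 and 0.476% with DMSO and 0.422, 0.474 and 0.438% with MPM-1. The 19S shares did not overlap between treatments, whereas the 20S shares did, because MPM-1 replicate 2 lay among the DMSO libraries.

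**Figure D3:**
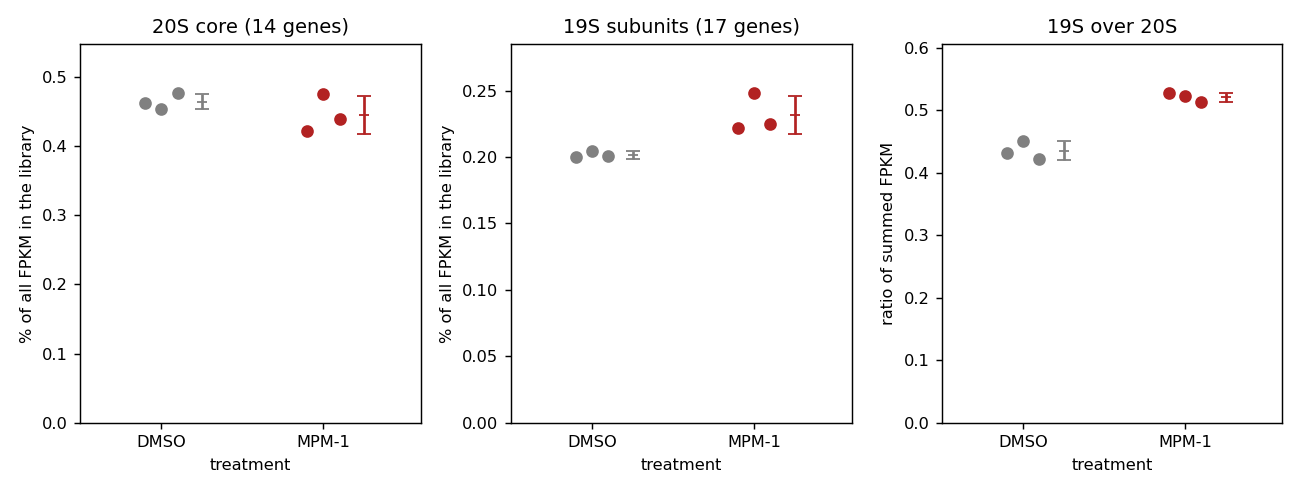
Share of all FPKM in a library held by the 14 genes of the 20S core (left) and the 17 genes of the 19S subunits (middle), in percent, and the ratio of the summed FPKM (right), with 1 point per library and the mean ± SD beside the points (n = 3). The ratio lies between 0.421 and 0.451 with DMSO and between 0.513 and 0.527 with MPM-1.

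In the alpha ring of the core, 3 of 7 genes were higher (42.9%, against 27.7% of all genes tested) and 2 were lower (28.6%, against 28.8%), the latter a share near that of all genes. PSMA7 had 269, 238 and 248 CPM with DMSO and 320.0, 308 and 292 CPM with MPM-1 (log2 fold change 0.29, SE 0.077, adjusted p = 0.0103). PSMA6 (0.27, adjusted p = 0.0171) and PSMA1 (0.23, adjusted p = 0.0156) were likewise higher, and all 3 lost the call with library size alone and with FPKM. PSMA6 shares 38842 bases on the same strand with AL121594.1, which is in the table, so their reads could be split, and its call was lost without DMSO replicate 2 (adjusted p = 0.065). PSMA4, the alpha subunit whose tail helps to close the gate, had 222, 227 and 230.0 CPM with DMSO and 149, 198 and 169.6 CPM with MPM-1. Its MPM-1 libraries spread widely but all lay below the DMSO libraries, and it fell by 0.39 on the log2 scale (SE 0.10, adjusted p = 0.00845). PSMA3 was lower too (log2 fold change -0.33, adjusted p = 0.016), a call lost without DMSO replicate 2 (adjusted p = 0.0504), DMSO replicate 3 (0.0546) or MPM-1 replicate 1 (0.0528). PSMA2 and PSMA5 had log2 fold changes of -0.12 (adjusted p = 0.2) and -0.12 (adjusted p = 0.297). On the same strand, PSMA1 shares 15471 bases with AC018523.2 and PSMA2 shares 15318 with AC010132.3. Neither of these overlapping genes has a row in the table.

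Among the 4 beta subunits without an active site, 2 were lower (50%, against 28.8% of all genes tested) and 2 did not pass. PSMB3 stood at 283, 255 and 293 CPM with DMSO and 212, 211 and 209 CPM with MPM-1. The groups did not overlap, and the MPM-1 values were close to each other. It fell by 0.39 on the log2 scale (SE 0.076, adjusted p = 0.00173). PSMB2 was at the edge of the threshold (log2 fold change -0.20, adjusted p = 0.0422), and its call was lost with DESeq2's size factors and without any of DMSO replicates 1, 2 and 3 (adjusted p = 0.0753, 0.0793 and 0.0976) or MPM-1 replicates 1 and 3 (0.146 and 0.17). PSMB4 had 290.3, 275 and 308 CPM and 273, 332 and 315 CPM, with overlap (log2 fold change 0.075, adjusted p = 0.495). PSMB1 had a log2 fold change of 0.029 (adjusted p = 0.785).

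The constitutive catalytic subunits changed little. PSMB5, with the chymotrypsin-like site, stood at 228, 211 and 220.2 CPM with DMSO and 193, 213 and 210.0 CPM with MPM-1 (log2 fold change -0.098, 95% confidence interval -0.26 to 0.067, adjusted p = 0.283). PSMB6, with the caspase-like site, had 184, 161 and 176 CPM and 164, 177 and 174 CPM (log2 fold change -0.015, 95% confidence interval -0.19 to 0.16, adjusted p = 0.881). In both genes the groups overlapped. PSMB7, with the trypsin-like site, had 271, 249.7 and 271 CPM and 298, 341 and 305 CPM, with MPM-1 above DMSO in every library (log2 fold change 0.25, SE 0.079, adjusted p = 0.0205). This call was lost with library size alone, with FPKM and without DMSO replicate 2 (adjusted p = 0.0798). PSMB5 passed as lower with library size alone (-0.25, adjusted p = 0.0163).

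The immunoproteasome held the largest change of any member. PSMB9, the subunit that takes the place of PSMB6 (chr6:32844136-32859585, plus strand, GRCh38), had 8.64, 8.71 and 9.82 CPM in the DMSO libraries and 3.97, 4.03 and 4.53 CPM in the MPM-1 libraries. The libraries of each treatment lay close together, and the groups were far apart. Its mean went from 9.05 ± 0.6601 to 4.18 ± 0.305 CPM (SD, n = 3), 0.462 of the DMSO level, and it fell by 1.12 on the log2 scale (SE 0.17, 95% confidence interval -1.49 to -0.74, adjusted p = 0.000419), with -1.27 to -1.05 over the alternatives. PSMB8, which takes the place of PSMB5 (chr6:32840717-32844703, minus strand), had 57.2, 55.4 and 58.6 CPM and 38.3, 49.3 and 43.1 CPM. All MPM-1 libraries were below all DMSO libraries, and PSMB8 fell by 0.39 on the log2 scale (SE 0.099, adjusted p = 0.00794). PSMB10, which takes the place of PSMB7, had 10.8, 9.91 and 13.5 CPM with DMSO and 10.9, 13.4 and 9.29 CPM with MPM-1. Its groups overlapped (log2 fold change -0.026, SE 0.18, adjusted p = 0.916), and the 95% confidence interval of -0.44 to 0.39 leaves room for a change in either direction. The annotated span of PSMB10 shares 1516 bases on the same strand with AC040162.1, which has no row in the table.

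On chromosome 6 the annotated spans of PSMB8 and PSMB9 share 568 bases on opposite strands. The annotated span of PSMB9 also shares 8770 bases with TAP1 on the opposite strand and 2360 bases with the RNA PSMB8-AS1 on the same strand, and without a stated strand setting reads from such stretches cannot be told apart. TAP1, a pump that loads peptides for antigen presentation, had 76.5, 64.7 and 56.8 CPM with DMSO and 64.5, 61.6 and 57.4 CPM with MPM-1 (log2 fold change -0.11, adjusted p = 0.419). The promoters of the pair are shown because one holds the interferon motif and the other does not. That of PSMB8, chr6:32843998-32844297 on the minus strand, has the interferon core on the reverse strand, starting at -4. In that of PSMB9, chr6:32853942-32854241 on the plus strand, CCAAT starts at -243 and TGACNNNGC, on the reverse strand, at -148. The PSMB9 promoter lies inside the annotated span of the gene, which starts at 32844136. The stretch shared with PSMB8 lies before the transcript start read here.
PSMB8: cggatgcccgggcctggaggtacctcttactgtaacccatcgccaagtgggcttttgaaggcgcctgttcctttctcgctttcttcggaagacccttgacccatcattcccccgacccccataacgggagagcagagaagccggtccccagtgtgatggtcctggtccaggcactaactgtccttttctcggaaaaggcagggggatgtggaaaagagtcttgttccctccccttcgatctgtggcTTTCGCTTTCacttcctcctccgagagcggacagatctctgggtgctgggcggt
PSMB9: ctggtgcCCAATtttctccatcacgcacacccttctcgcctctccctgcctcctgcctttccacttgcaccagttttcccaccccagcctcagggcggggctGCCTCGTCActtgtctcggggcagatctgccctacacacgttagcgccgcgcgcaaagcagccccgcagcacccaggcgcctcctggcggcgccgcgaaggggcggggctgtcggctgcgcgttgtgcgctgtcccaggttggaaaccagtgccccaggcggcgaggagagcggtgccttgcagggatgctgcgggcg

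Per length, the immuno subunits were the minor forms. In FPKM, PSMB9 had 11.005, 12.2 and 12.96 with DMSO and 4.61, 5.604 and 5.77 with MPM-1, while PSMB6 had 215, 194 and 213 and 174, 195 and 193. As a share of PSMB6 in the same library, PSMB9 was 5.11, 6.26 and 6.08% with DMSO and 2.66, 2.88 and 2.99% with MPM-1. The share of PSMB8 relative to PSMB5 was 24.9, 24.996 and 26.9% with DMSO and 19.1, 23.0 and 20.5% with MPM-1. Neither pair overlapped between treatments. For PSMB10 relative to PSMB7 it was 3.21, 3.20 and 3.99% with DMSO and 2.98, 3.16 and 2.44% with MPM-1, and here the highest MPM-1 library lay just under the lowest DMSO library.

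**Figure D4:**
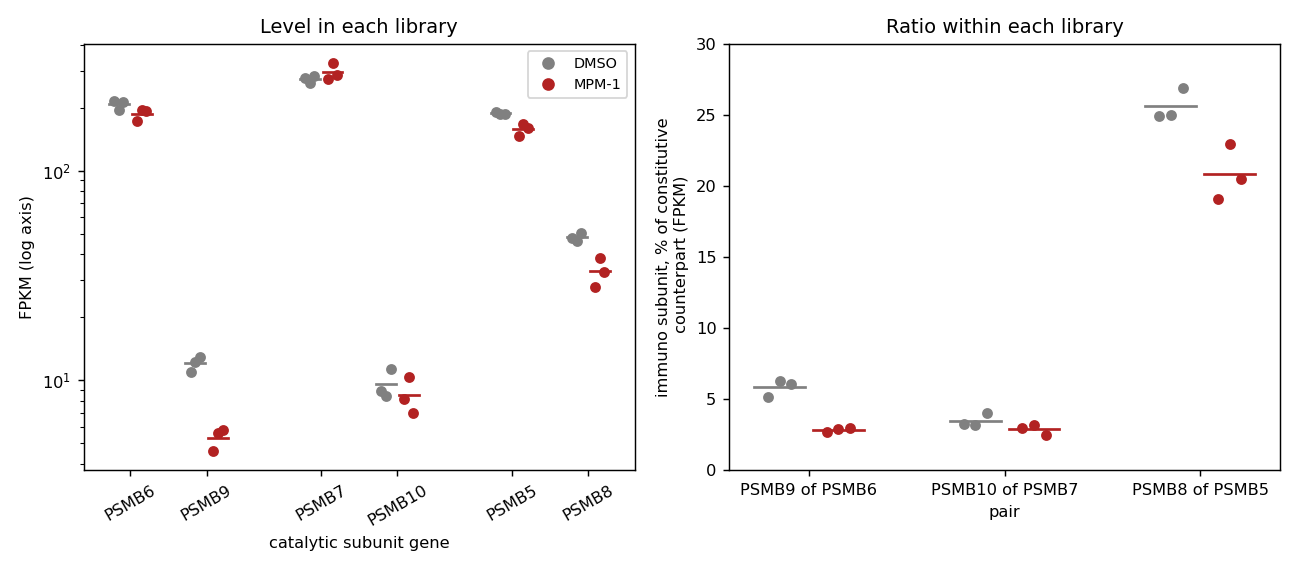
Left, FPKM of the 6 catalytic subunit genes (log axis) in each library, gray for DMSO and red for MPM-1, with a line at the mean of 3 libraries. Right, the FPKM of each immuno subunit as a percentage of the constitutive subunit it replaces, within each library; PSMB9 is at 5.11 to 6.26% of PSMB6 with DMSO and at 2.66 to 2.99% with MPM-1.

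Of the 4 genes of the other caps, PSME4 was higher and PSME1 was lower (25% each, near the 27.7% and 28.8% of all genes tested). PSME4, the PA200 activator, a nuclear cap tied to DNA repair and histone turnover (chr2:53864067-53970840, minus strand), had 94.1, 81.5 and 79.03 CPM with DMSO and 134, 127 and 121 CPM with MPM-1. The groups did not overlap. Its mean went from 84.9 ± 8.06 to 127 ± 6.54 CPM (SD, n = 3), a log2 fold change of 0.59 (SE 0.088, 95% confidence interval 0.39 to 0.78, adjusted p = 0.000391), as large as that of PSMD14. PSME1, a subunit of the PA28 cap that goes with the immunoproteasome (chr14:24136158-24138967, plus strand), had 138, 146 and 145 CPM and 106, 108 and 105 CPM. The 3 MPM-1 libraries were close to each other and all below DMSO, and PSME1 fell by 0.43 on the log2 scale (SE 0.068, adjusted p = 0.00056). On FPKM, PSME1 was 1022, 1229 and 1277% of PSME4 with DMSO and 542, 559 and 596% with MPM-1, so the ratio of both transcripts within a library did not overlap between treatments. The promoters of both are shown for the contrast of their letters. That of PSME4, chr2:53970944-53971243 on the minus strand, has TGACNNNGC on the reverse strand, starting at -34. In that of PSME1, chr14:24135944-24136243 on the plus strand, TGACNNNGC starts at -86 and the interferon core, on the reverse strand, at 6.
PSME4: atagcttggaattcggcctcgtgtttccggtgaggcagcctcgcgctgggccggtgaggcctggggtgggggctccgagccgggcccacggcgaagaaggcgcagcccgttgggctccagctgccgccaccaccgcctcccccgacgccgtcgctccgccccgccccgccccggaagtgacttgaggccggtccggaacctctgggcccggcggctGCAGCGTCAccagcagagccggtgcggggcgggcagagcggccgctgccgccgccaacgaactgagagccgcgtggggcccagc
PSME1: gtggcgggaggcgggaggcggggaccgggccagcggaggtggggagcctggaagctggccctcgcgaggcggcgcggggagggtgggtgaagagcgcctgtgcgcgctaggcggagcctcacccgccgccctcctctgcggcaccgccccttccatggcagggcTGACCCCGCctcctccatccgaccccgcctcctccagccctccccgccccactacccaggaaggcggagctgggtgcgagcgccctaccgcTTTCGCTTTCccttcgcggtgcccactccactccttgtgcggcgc

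PSME2, the partner of PSME1 in the cap, had 53.5, 61.8 and 73.9 CPM with DMSO, spread widely, and 56.2, 57.8 and 59.6 CPM with MPM-1, inside that range (log2 fold change -0.12, adjusted p = 0.367). On log2(FPKM + 0.1) it was lower in limma (-0.62, adjusted p = 0.000275). PSME3, which forms a separate nuclear cap, had 62.7, 75.4 and 71.1 CPM and 65.1, 67.5 and 61.4 CPM (log2 fold change -0.11, adjusted p = 0.314), and on the same scale was lower at -0.54 (limma, adjusted p = 0.0141). The log2 fold change from FPKM minus that from counts had a median of -0.15 over all genes, and was -0.50 for PSME2 and -0.43 for PSME3. PSME2 shares 888 bases with RNF31 and PSME3 8966 bases with BECN1, each on the opposite strand; the part of this overlap in the difference was not tested. PSMF1, which encodes PI31, a binding partner of the core first described as an inhibitor, had 95.1, 90.2 and 85.9 CPM with DMSO and 110.2, 128 and 131 CPM with MPM-1, without overlap (log2 fold change 0.44, SE 0.087, adjusted p = 0.00193), and its call was lost on FPKM.

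Assembly factors of the core went both ways. PSMG1 and PSMG2 form one chaperone pair and PSMG3 and PSMG4 another, and both pairs help to build the alpha ring. PSMG3 had 92.1, 91.2 and 89.7 CPM with DMSO and 56.7, 72.8 and 66.5 CPM with MPM-1, a fall of all MPM-1 libraries below DMSO (log2 fold change -0.48, SE 0.095, adjusted p = 0.00212). PSMG4 had 22.5, 20.3 and 26.2 CPM and 17.1, 15.9 and 17.2 CPM, again without overlap (log2 fold change -0.46, SE 0.12, adjusted p = 0.0099). PSMG1 had 31.9, 42.6 and 44.3 CPM, with DMSO replicate 1 low, and 48.8, 49.3 and 48.3 CPM. Its MPM-1 libraries all lay above DMSO, but it did not pass (log2 fold change 0.30, adjusted p = 0.054). Without DMSO replicate 1 its log2 fold change was 0.17 (adjusted p = 0.101), and it passed without DMSO replicate 3 (0.39, adjusted p = 0.0335), in DESeq2 (adjusted p = 0.0255) and with DESeq2's size factors (0.0405). PSMG2 had 90.99, 90.5 and 89.3 CPM and 102, 102 and 98.9 CPM, also without overlap (log2 fold change 0.16, adjusted p = 0.0653), and passed in DESeq2 (adjusted p = 0.0446). PSMG4 shares 34412 bases with SLC22A23, and PSMG2 40945 bases with CEP76, on opposite strands. POMP, the chaperone that matures the beta rings, lies outside the rule and rose from 203 ± 8.697 to 246 ± 14.1 CPM (log2 fold change 0.28, adjusted p = 0.0104), a call lost with library size alone and on FPKM.

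Of the 3 chaperones that guide the 19S base, PSMD10, also known as gankyrin, had 45.4, 47.1 and 44.8 CPM with DMSO and 55.5, 62.8 and 61.2 CPM with MPM-1. The groups did not overlap (log2 fold change 0.39, SE 0.079, adjusted p = 0.00242). PSMD5 had 78.5, 76.2 and 72.7 CPM and 69.7, 73.5 and 74.5 CPM, with overlap (log2 fold change -0.064, adjusted p = 0.48). PSMD9 had 115, 97.1 and 97.2 CPM and 106, 103 and 106 CPM, where DMSO replicate 1 was high (log2 fold change 0.027, adjusted p = 0.806). On log2(FPKM + 0.1) it was lower in limma (-0.50, adjusted p = 0.0102), so its direction depended on the unit. Its annotated span shares 29489 bases on the same strand with AC069503.2, which has no row in the table. PSMC3IP, the row without a proteasome role, had 4.94, 4.03 and 5.37 CPM and 4.398, 3.54 and 5.33 CPM, with overlap (log2 fold change -0.11, adjusted p = 0.7).

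Levels differed between parts of the particle. Mean FPKM over all 6 libraries ran from 47.2 to 315 in the 20S core, from 22.1 to 226 in the 19S subunits, from 18.2 to 72.2 in the chaperones of the core, and from 8.69 to 40.7 in the immuno subunits. The medians were 182, 61.5, 44.2 and 9.02 FPKM. FPKM takes the authors' transcript lengths as given, and the order of neighbors in such a list was not tested. The genes lie on 17 chromosomes, with 7 on chromosome 14, 7 on chromosome 17, 4 on chromosome 1 and 4 on chromosome 6.

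Genes that supply and control the proteasome were read from 4 lists outside the rule. Of 11 proteasome genes with other symbols, 6 were higher (54.5%, against 27.7% of all genes tested) and 5 did not pass (median log2 fold change 0.25), whereas 4 were higher and 2 lower with library size alone. ECPAS, an adaptor that binds the 26S proteasome, rose most, from 42.9 ± 1.42 to 80.8 ± 0.941 CPM (log2 fold change 0.91, adjusted p = 8.64e-06). SEM1, the smallest lid subunit, had -0.079 (adjusted p = 0.404), and it was lower with library size alone (-0.23, adjusted p = 0.0223). Of 13 genes listed for NFE2L1 control, 8 were higher (61.5%, against 27.7%) and 2 lower (15.4%, against 28.8%). Their median was 0.85, and the counts were the same with library size alone. The list is not of NFE2L1 alone: NFE2L2 is among the higher genes and KEAP1 among the lower. The MAF genes in it serve NFE2L1 and NFE2L2 alike. NFE2L1 had 89.5, 89.6 and 82.04 CPM with DMSO and 186, 143 and 166 CPM with MPM-1 (log2 fold change 0.92, SE 0.10, adjusted p = 6.46e-05). Its relative NFE2L2, which answers to oxidants, had 78.3, 85.6 and 89.3 CPM and 131, 148 and 144 CPM (log2 fold change 0.74, SE 0.083, adjusted p = 7.32e-05). Past 1 on the log2 scale were MAFF (1.97, adjusted p = 1.95e-05) and MAFK (1.005, adjusted p = 0.00049), the small partners of both factors, NGLY1 (1.06, adjusted p = 6.74e-06), which strips sugars from NFE2L1, and SEL1L (1.61, adjusted p = 1.9e-06), part of the channel complex that exports it from the endoplasmic reticulum. MAFK lay at the edge of that size and ran from 0.83 to 1.21 over the alternatives. DDI2, the protease that activates NFE2L1, had -0.076 (adjusted p = 0.731), and VCP, which pulls it from the membrane, was lower (-0.30, adjusted p = 0.0147), as was KEAP1, which holds NFE2L2 in check (-0.56, adjusted p = 0.000263). The call of VCP was lost without DMSO replicate 2 (adjusted p = 0.0529) or MPM-1 replicate 2 (0.0657).

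Of 15 genes of ubiquitin supply and delivery, 12 were higher (80%, against 27.7% of all genes tested) and 3 did not pass, with a median log2 fold change of 0.42, and 11 were higher and 1 lower with library size alone. SQSTM1, a receptor that carries ubiquitinated cargo to autophagy, had 1351, 1150.2 and 1115 CPM with DMSO and 5028, 4196 and 4466 CPM with MPM-1 (log2 fold change 1.92, SE 0.095, adjusted p = 6.58e-07). Its MPM-1 libraries lay far above DMSO. Of 6 genes of peptide loading and interferon regulation, 2 were higher and 2 lower (33.3% each, near the 27.7% and 28.8% of all genes tested). B2M, the light chain of MHC class I, rose from 173 ± 3.11 to 397 ± 15.3 CPM (log2 fold change 1.196, adjusted p = 1.67e-06), NLRC5 (0.90, adjusted p = 0.00149) was higher, and TAPBP (-0.43, adjusted p = 0.00871) and TAP2 (-0.35, adjusted p = 0.0171) were lower. The call of TAP2 was lost without DMSO replicate 2 (adjusted p = 0.0739), MPM-1 replicate 2 (0.0691) or MPM-1 replicate 3 (0.0737). IRF1, a transcription factor that drives PSMB9 under interferon, had 0.33 (adjusted p = 0.177). PSMB8, PSMB9 and PSME1 were lower in the same libraries in which B2M and NLRC5 were higher. The calls of MAFF, NGLY1, SEL1L, NFE2L1, NFE2L2, SQSTM1 and B2M held under all 15 alternatives.

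**Figure D5:**
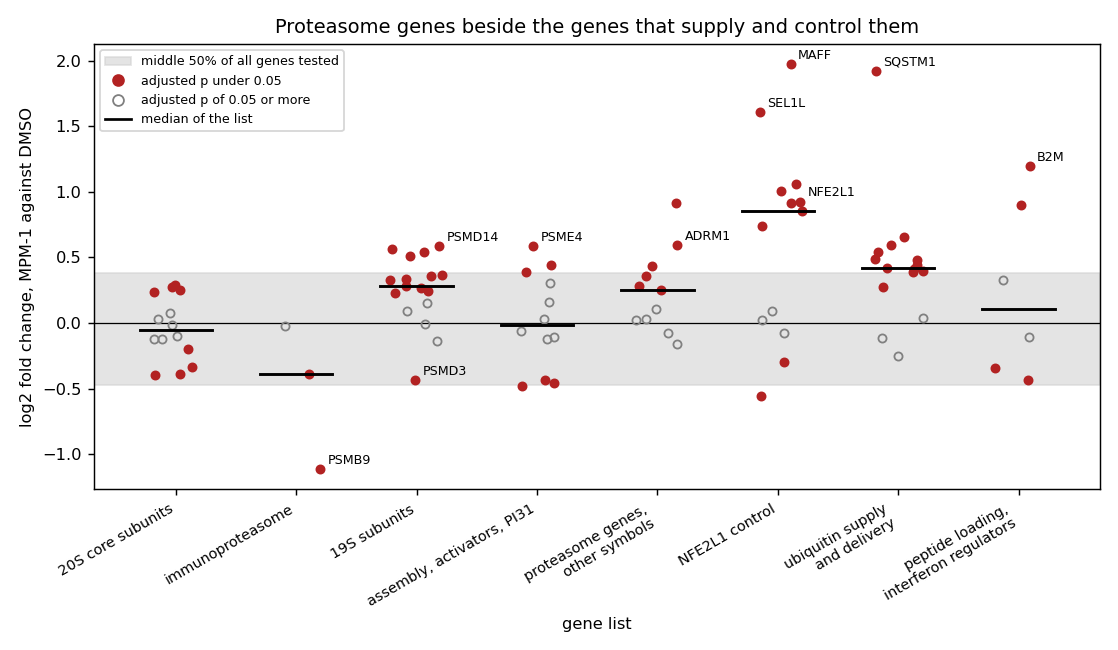
Log2 fold change of MPM-1 against DMSO with TMM scaling (y axis) for each gene of 4 groups of proteasome genes and 4 outside lists (x axis); filled points passed an adjusted p of 0.05, black bars are medians and the gray band holds the middle 50% of all genes tested, from -0.47 to 0.38. The 19S median is 0.28 (0.13 with library size alone) and the 20S median -0.057 (-0.21), and SQSTM1 and MAFF lie above every proteasome gene.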

How the data were processed

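Raw read counts per gene and library came from a single table, as the authors deposited it, in whole numbers. Beside them stood the authors' FPKM values, by definition fragment numbers divided by transcript length and depth. They were not the counts over a fixed length per gene. PSMD9 had 3793 counts in DMSO 1 and 3870 in DMSO 3, the deeper library, but 55.6 and 64.9 FPKM. How the length or fragment number was set is not given in the sources used here. Per gene, a log2 fold change with its FDR, which the authors had computed from the same libraries, was left unused. The submitters' processing notes name HISAT2 and DESeq2, without versions, and the build mm10, although the identifiers are those of human genes. Counting tool, annotation, strand setting and filter are not given in the sources used here. Every gene had a total of at least 115 counts. No columns of per-sample values were left unused.

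All 6 libraries were fitted without covariates in R 4.3.3 with edgeR 4.0.16 (quasi-likelihood test, TMM factors between 1.03 and 1.07 in DMSO and between 0.930 and 0.969 in MPM-1, common dispersion 0.0231), on all 12982 genes. Libraries of one treatment were not duplicates (chi-square per gene of 15.4 to 33.2). Alternatives were DESeq2 1.42.0 (test or size factors), library size alone, TMM without genes of mitochondrial DNA, a mean of at least 50 counts, each library left out, the replicate number as a block, an adjusted p under 0.01, and limma 3.58.1 on log2(FPKM + 1) or log2(FPKM + 0.1), with a mean of at least 1 FPKM or no filter. That scale understates changes of low genes. The test was checked on simulated counts. In these, 100 genes were set apart by 0.5 on the log2 scale, and 30 of them were recovered. Of 100 genes set apart by 2, 98 were recovered. In both cases 0 had the wrong sign, and 9 genes that were not set apart were called. At a size of 0.5 or less, a gene that did not pass thus cannot be read as equal between treatments.

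The members and the gene lists were chosen with earlier results of these data known, so no list was tested as a whole. Some genes of the lists are not reported here and were left out of their counts. Named with values in every library are the catalytic subunits, members past 1 on the log2 scale, the highest and lowest member of each role group, PSMC3IP, and members that a sentence needed. Named outside the rule, with library values, means or fold changes alone, are POMP, ADRM1, SEM1, NFE2L1, NFE2L2, SQSTM1, TAP1 and genes past 1 on the log2 scale. Others named outside it were chosen after their values were seen. Positions and overlaps are from GENCODE release 29 (GRCh38) and promoters from RefSeq.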

Additional observations from a re-analysis of the deposited data

How the results depend on the processing

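Scaling and unit moved the counts most. With library size alone 7 members were higher and 16 lower, with a median log2 fold change of -0.066. Of the 7460 genes called in that setting, 34.7% were higher. In limma, 6 were higher and 18 lower under log2(FPKM + 1), log2(FPKM + 0.1) and log2(FPKM + 1) without a filter, with medians of -0.082, -0.083 and -0.082. At an adjusted p under 0.01, 11 were higher and 8 lower, where 5330 of the 12982 genes tested were called, 49.6% of them higher. Leaving out each library in turn gave 13 to 19 higher, 8 to 10 lower, 1 lower past 1 on the log2 scale, and a median of 0.051 to 0.146. Those fits called 6099 to 7125 of the 12982 genes tested, 49.2 to 50.7% of them higher. Under DESeq2's test and size factors, TMM without genes of mitochondrial DNA and the mean of 50 counts, both counts stayed within 1.5 times. In PSMD9 the direction reversed, at -0.49, -0.50 and -0.49 in the 3 limma settings (adjusted p = 0.00923, 0.0102 and 0.00971), and the cause was not tested. By counts 29 members were called and by FPKM 24, of which 16 the same way and 0 in opposite directions. The libraries share only a replicate number. The correlations of deviations between libraries of the same number were 0.021, 0.114 and -0.074, and DMSO 1 with MPM-1 3 had 0.115. No pairing by number was thus visible. With 3 libraries per treatment these values cannot decide whether the numbers mark paired cultures, which is not stated. With the replicate block 19 members were higher and 9 lower, with a median of 0.081, where PSMD12 and PSMB2 missed the threshold (adjusted p = 0.0535 and 0.0705) and PSMG1 passed it (0.043). Depth and spread limit small changes: the 95% interval of PSMB10 ran from -0.44 to 0.39.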
